A study of Mus musculus with 2 samples.

Results

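*Crym*, *Thra*, *Thrb*, *Dio2* and *Dio3*, genes that bind, convert or respond to thyroid hormone, were followed in RNA of the embryonic mouse brain. They are 5 of the 37071 gene names on the array and were read by 9 of its 56605 probes. All probes that carried these gene names were taken. The genes were selected with their ratios on these arrays already known, *Crym* for its ratio and the others for their place around it, so their values are a description and carry no test.

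Each of 2 Agilent arrays set RNA of *Plzf* lu/lu embryos against RNA of wild type embryos of the C57BL/6 strain, both taken from forebrain and midbrain at E10.5. The luxoid (lu) allele of *Plzf* (*Zbtb16*) carries a point mutation early in the coding sequence that truncates the zinc finger protein. On both arrays Cy3 marked the wild type RNA and Cy5 the *Plzf* lu/lu RNA. The dyes were not swapped, and so a dye effect of a probe and an effect of the genotype cannot be told apart. The labels call the 2 arrays biological replicates, the number of embryos behind each is not stated in the sources used here, and both arrays were on 1 slide with 1 scan time. Values are processed signals in intensity units after background subtraction and dye normalization within each array, and the arrays were not scaled to each other. Of the 59305 gene spots on an array, those well above background numbered 36936 and 44100 for wild type and 43546 and 44318 for *Plzf* lu/lu on arrays 1 and 2. With 2 arrays, the number of arrays limits the precision. A gene is described as not well above background in every channel where its brightest probe missed that limit in at least 1 of the 4 channels.

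Thyroid hormone circulates mainly as thyroxine, enters cells through membrane carriers and is turned into the active triiodothyronine by the deiodinase *Dio2*, while *Dio3* inactivates both forms. Triiodothyronine acts through the nuclear receptors encoded by *Thra* and *Thrb*, which pair with retinoid X receptors and exchange corepressors for coactivators when hormone binds. *Crym* encodes mu-crystallin, a cytosolic protein that binds triiodothyronine with the help of NADPH and also acts as a ketimine reductase in lysine metabolism, and the thyroid of the mouse embryo does not yet make hormone at this stage.

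The mutated gene was examined first. The brightest *Zbtb16* probe, at chr9:48462419-48462478 (mm9), had a signal of 433 and 546 in wild type embryos and of 172 and 211 in *Plzf* lu/lu embryos on arrays 1 and 2. The log2 ratio, here always *Plzf* lu/lu over wild type, was -1.33 and -1.37, and both *Plzf* lu/lu signals were below both wild type signals. The *Plzf* lu/lu signal on array 1 was under the signal minimum of 200 applied to all genes. The luxoid change is a point mutation, so the probe reads the amount of transcript and not the allele itself.

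*Crym* was higher in the *Plzf* lu/lu brain on both arrays. Its wild type signal was 4338 on array 1 and 2829 on array 2, and its *Plzf* lu/lu signal was 6720 on array 1 and 6471 on array 2. Both *Plzf* lu/lu channels lay above both wild type channels, and the *Plzf* lu/lu channels were close to each other while the wild type channels were apart. The ratio was 1.55 on array 1 and 2.29 on array 2, and the log2 ratio averaged 0.91 ± 0.40 (SD, n = 2 arrays). In a bulk sample, a different number of cells that express a gene and a different amount of its RNA per cell cannot be told apart.

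The difference between the arrays was in the wild type channel of *Crym*. Its wild type signal on array 1 was 1.53 times that on array 2, and the *Plzf* lu/lu signal was 1.04 times that on array 2. Over the 10600 genes that passed the signal rule the median of the same quotient was 1.01 for wild type and 1.02 for *Plzf* lu/lu. This rule asked for a processed signal above 200 and a signal-to-noise ratio of 5 or more in all 4 channels. *Crym* was far above these limits, with a signal-to-noise ratio of 459 and 362 in wild type and of 1158 and 813 in *Plzf* lu/lu.

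Changed genes had to be past 1.3-fold on each array, with the same sign. Of the 5 genes, 2 passed the signal rule (*Crym* and *Thra*), and 1 of these, *Crym*, was counted as higher and 0 as lower. Among all 10600 passing genes 274 (2.58%) were higher and 78 (0.736%) were lower. These shares are given as the background, and nothing is read from the count of *Crym*, since its ratio was the reason for its choice. With median centring of normexp-corrected signals in place of the dye normalization, the log2 ratio of all passing genes shifted by a median of 0.55, and 6698 genes were higher and 4 lower. *Crym* ranked 10 of 10600 by its mean log2 ratio and 19 by the smaller of its ratios, on array 1. Its mean log2 ratio relative to the median of all passing genes was 0.91 with the deposited dye normalization and 0.99 with median centring. *Crym* was beyond 1.3-fold on both arrays under each of 5 alternative treatments of the signals, but this count is no measure of stability. Averaging over probes leaves a gene with 1 probe as it is, and the deposited log2 table holds the same ratios. Median centring raised most genes, and relative to the median it put *Crym* at 0.73 and 1.26 on arrays 1 and 2.

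**Figure D1:**
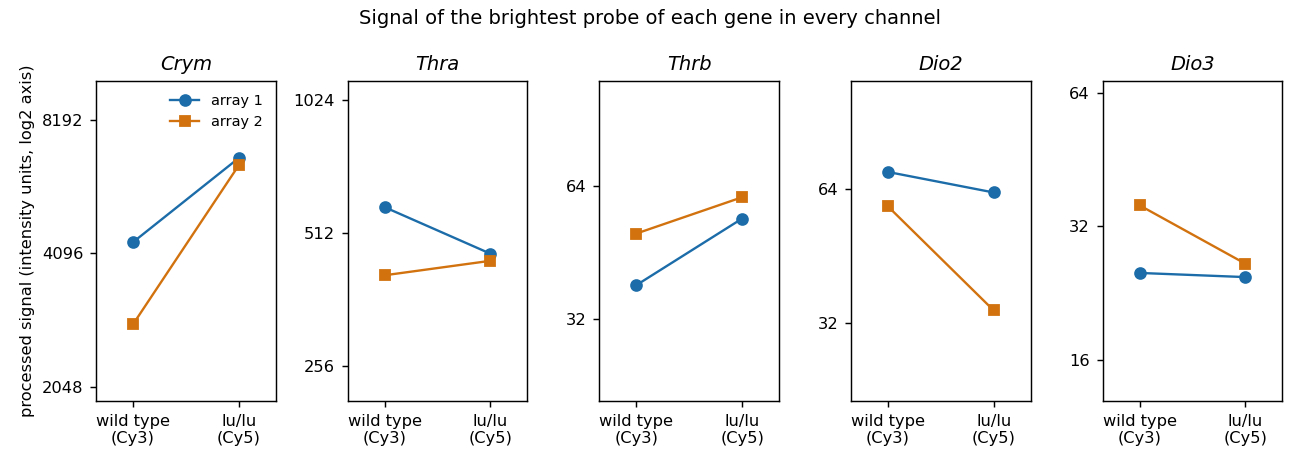
Processed signal (intensity units, log2 axis) of the brightest probe of each of the 5 genes in the wild type (Cy3) and *Plzf* lu/lu (Cy5) channel, with a line for each of the 2 arrays. Every panel spans the same fold range around its own level. *Crym* rose from 4338 to 6720 on array 1 and from 2829 to 6471 on array 2, and the lines of *Thra* ran in opposite directions.

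The *Crym* transcript was read by 1 probe, A_51_P264695, at chr7:127329970-127330029 on the minus strand (mm9), which the array annotation assigns to NM_016669. The exon and untranslated region annotation of this build was not used here, so positions within the transcripts are not given for any probe. All probes are 60 bases long, and the first 30 bases of the probes that gave the values of the 5 genes are shown, since each ratio is that of 1 such oligonucleotide and not of a whole transcript.
Crym A_51_P264695: cccctattcatgtttgtggttggatagcta
Thra A_51_P475995: aaatggtagtcatcctaactgcactttgga
Thra A_52_P666930: tacctgctggcgtttgagcactacgtcaac
Thra A_66_P102879: aaagcagcatgtcagggtatatccctagtt
Thrb A_51_P388835: ggtgtcattgcattccacctgtagcattct
Thrb A_52_P532559: aaatcattctcttctaatcttgtccagact
Dio2 A_51_P208603: aatgataactactgacgaaagagctgtctg
Dio3 A_55_P2091468: cttttgtgtttatttcttatccctgggttg
The GC content of the *Crym* probe was 43.3%, and with the trend of the log2 ratio on probe GC content removed from each array its mean log2 ratio was 0.93.

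The genes with ratios most like those of *Crym* were taken as the 5 passing genes, with a symbol in RefSeq, at the smallest Euclidean distance from it in the log2 ratios of the 2 arrays. They were *Foxa2*, a transcription factor of the floor plate (distance 0.09), *Myt1*, a zinc finger factor of differentiating neurons (0.19), *Stmn3*, a neuronal stathmin (0.24), *Fgfbp3*, which binds fibroblast growth factors (0.25), and *Lmo1*, a LIM domain protein (0.27). *Foxa2* had a log2 ratio of 0.72 and 1.22 on arrays 1 and 2, and *Myt1* 0.59 and 1.38. That all 5 had the larger ratio on array 2 follows from how they were chosen. The channel that differed between the arrays was not the same as in *Crym*. The *Plzf* lu/lu signal on array 1 was between 0.517 (*Foxa2*) and 0.827 (*Lmo1*) times that on array 2 in these 5 genes, against 1.04 in *Crym*, and their wild type quotient was between 0.731 (*Foxa2*) and 1.23 (*Stmn3*), against 1.53. The likeness covers only 2 arrays, and all 5 genes, like *Crym*, are among those the study listed from the same arrays.

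**Figure D2:**
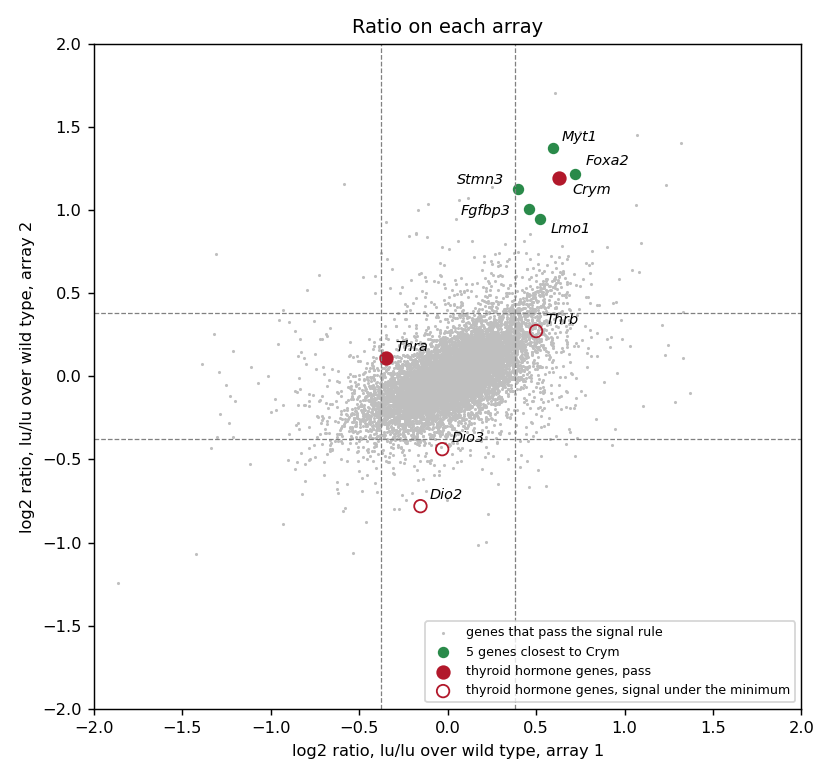
Log2 ratio (*Plzf* lu/lu over wild type) on array 1 (x axis) and array 2 (y axis) for the 10600 genes that pass the signal rule (grey), the 5 thyroid hormone genes (red, open where the signal is under the minimum) and the 5 genes closest to *Crym* (green). Dashed lines mark 1.3-fold, and 3 grey genes lie outside the axes. *Crym*, at 0.63 and 1.19, lies beyond the lines on both arrays and the other 4 thyroid hormone genes do not.

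Of the receptors, *Thra* encodes the form that predominates in the developing brain, and 4 probes carried its name. The brightest, A_51_P475995 at chr11:98626356-98626415 on the plus strand, had a wild type signal of 586 on array 1 and 411 on array 2, and a *Plzf* lu/lu signal of 460 on array 1 and 443 on array 2. The *Plzf* lu/lu signals lay between the wild type signals, so the genotypes overlapped. Its log2 ratio was -0.35 on array 1 and 0.11 on array 2, with a mean of -0.12 ± 0.32 (SD, n = 2 arrays), a difference smaller than the spread between the arrays.

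The other *Thra* probes well above background also had ratios of opposite sign on the arrays. A_52_P666930, at chr11:98625642-98625701, had wild type signals of 210 and 134 and *Plzf* lu/lu signals of 155 and 151, with log2 ratios of -0.43 and 0.17. A_66_P102879, whose annotated position runs from 98617475 to 98618281 on the same strand and so covers 807 bases for a probe of 60, had 38.1 and 20.8 in wild type and 28.7 and 26.3 in *Plzf* lu/lu, with log2 ratios of -0.41 and 0.34. On all 3 probes well above background, the ratio was negative on array 1 and positive on array 2, and the *Plzf* lu/lu signals lay between the wild type signals. The array difference of *Thra* was again in the wild type channel, where array 1 was 1.42, 1.56 and 1.83 times array 2 on the 3 probes, against 1.04, 1.03 and 1.09 in the *Plzf* lu/lu channel. The probes share a gene and the same RNA, so they are not replicates of the genotype. The fourth probe, A_55_P2716818, annotated to the transcript ENSMUST00000142944 alone, was not well above background in any of the 4 channels, and no ratio is given for it. When the 4 probes were averaged, this probe pulled the log2 ratio of *Thra* to -0.44 on array 1 and -0.35 on array 2, with a mean of -0.39 ± 0.06 (SD, n = 2 arrays), and the gene was still not past 1.3-fold on both arrays.

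*Thrb*, the receptor that serves the pituitary feedback and the sensory organs, was read at a low signal. Its brighter probe, A_51_P388835 at chr14:18866221-18866280 on the plus strand, had a wild type signal of 38.2 and 49.9 and a *Plzf* lu/lu signal of 53.9 and 60.3 on arrays 1 and 2. All 4 channels were well above background but under the minimum of 200, and both *Plzf* lu/lu signals were above both wild type signals. The log2 ratio was 0.50 on array 1 and 0.27 on array 2, with a mean of 0.39 ± 0.16 (SD, n = 2 arrays), so 1.3-fold was passed on array 1 and missed on array 2. Relative to the median of all passing genes the mean was 0.38 with the deposited dye normalization and turned to -0.18 with median centring.

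The second *Thrb* probe, A_52_P532559 at chr14:18868800-18868859, was well above background for *Plzf* lu/lu on both arrays, at 7.88 and 13.1, and not well above background for wild type on either array, at 2.89 and 7.35. No fold is given for it, since its wild type level was not measured above background. When the probes of a gene were averaged, this dim probe raised the mean log2 ratio of *Thrb* to 0.76 and took the gene beyond 1.3-fold on both arrays.

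The deiodinases were also read at low signals, and with the deposited dye normalization neither was beyond 1.3-fold on both arrays. *Dio2*, the activating enzyme, was read by A_51_P208603 at chr12:91963235-91963294 on the minus strand, with a wild type signal of 70.0 and 58.5 and a *Plzf* lu/lu signal of 62.9 and 34.1 on arrays 1 and 2. Its *Plzf* lu/lu signal on array 1 lay between the wild type signals, and the lowest of the 4 channels was *Plzf* lu/lu on array 2. The log2 ratio was -0.15 and -0.78, with a mean of -0.47 ± 0.44 (SD, n = 2 arrays), about the size of the spread between the arrays.

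*Dio3*, the inactivating enzyme, which is encoded by a single exon in an imprinted domain, was read by A_55_P2091468 at chr12:111518792-111518851 on the plus strand. Its wild type signal was 25.1 and 35.7 and its *Plzf* lu/lu signal 24.6 and 26.3 on arrays 1 and 2. The *Plzf* lu/lu signal on array 2 was above the wild type signal on array 1, so the genotypes overlapped. The log2 ratio was -0.03 and -0.44, with a mean of -0.23 ± 0.29 (SD, n = 2 arrays), within the spread between the arrays. The signal-to-noise ratio of *Dio3* was between 5.06 and 5.98 over the 4 channels and that of *Dio2* between 8.47 and 13.3.

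The values of the deiodinases moved in both directions with the normalization. Relative to the median of all passing genes, the mean log2 ratio of *Dio2* was -0.47 with the deposited dye normalization, -0.27 with normexp and loess and -0.67 with median centring, and that of *Dio3* was -0.24, -0.10 and -0.67. On this relative scale median centring put *Dio2* at -0.50 and -0.84 and *Dio3* at -0.64 and -0.70 on arrays 1 and 2, past 1.3-fold lower on both, and normexp with loess put neither past it on both, with *Dio3* at 0.02 on array 1.

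*Thrb*, *Dio2* and *Dio3* were well above background in all 4 channels through their brightest probes, as were *Crym* and *Thra*. With this weaker requirement in place of the signal rule, 1 of the 5 genes was beyond 1.3-fold higher on both arrays and 0 lower, while among all 23284 genes that met it 586 (2.52%) were higher and 481 (2.07%) lower. *Crym* was the gene in that count as well.

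Further genes were taken from 12 lists that hold none of the 5 genes and cover thyroid hormone action, the thyroid gland, lysine metabolism, crystallin-named genes and the imprinted domain of *Dio3*. Of the 88 listed genes all were on the array, 70 were well above background in every channel and 31 passed the signal rule. Among these 31, 0 were beyond 1.3-fold higher on both arrays and 1 was lower, beside 2.58% higher and 0.736% lower over all passing genes. At these shares lists this small can hold 0 counted genes, so nothing is read from the counts here or in the single lists. The median log2 ratio of the 31 was 0.11 on array 1 and -0.02 on array 2, beside 0.02 and -0.0047 over all passing genes. Without the gland, lysine, crystallin and imprinted lists, 22 of 54 genes passed, 0 were higher and 1 lower, and the medians were -0.01 and 0.04. With limma, 0 of the 31 genes were at an adjusted p under 0.05 in either direction and 9 at an unadjusted p under 0.05, beside 3 higher genes (0.0283%) and 0 lower genes of 10600 adjusted, and 1665 higher and 1277 lower unadjusted.

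The gene counted as lower was *Trh*, the hypothalamic hormone at the head of the thyroid axis, read by 1 probe. Its wild type signal was 921 and 635 and its *Plzf* lu/lu signal 691 and 407 on arrays 1 and 2, so the *Plzf* lu/lu signal on array 1 lay above the wild type signal on array 2. The log2 ratio was -0.41 and -0.64, lower on 2 of 2 arrays, with a limma adjusted p of 0.055 that ranged from 0.0545 to 0.964 over 8 alternatives. Relative to the median of all passing genes its mean log2 ratio was -0.53 with the deposited dye normalization and -0.56 with median centring. *Trh* is a gene the study listed from these arrays and is no independent evidence. The other 6 genes of the axis list (*Trhr*, *Trhr2*, *Trhde*, *Tshb*, *Cga* and *Tshr*) were not well above background in every channel.

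Of the carriers that bring thyroid hormone into cells, 2 of 8 passed and 0 were counted as changed, with a median log2 ratio of -0.22 on array 1 and -0.01 on array 2. The highest signal was that of *Slc3a2*, the heavy chain of the system L amino acid carriers, with wild type signals of 2044 and 1878 and *Plzf* lu/lu signals of 1520 and 1553. Both *Plzf* lu/lu signals were under both wild type signals, at log2 ratios of -0.43 and -0.27, and 1.3-fold was passed on array 1 alone. Among the 3 carriers of the hormone in blood and cerebrospinal fluid, *Ttr* and *Serpina7* were not well above background in every channel, and *Alb* was under the signal minimum at 0.30 and 0.09. *Ttr* had a signal of 380 in wild type on array 1 and of 1.77 on array 2, against 16.2 and 13.6 in *Plzf* lu/lu, and no ratio is given for it.

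In the list of the remaining deiodination genes and the factors that insert selenocysteine, on which all deiodinases depend, 5 of 10 passed and 0 were counted as changed. The median log2 ratio was -0.04 on array 1 and -0.05 on array 2. *Sephs2*, which makes the selenium donor, had the highest signal and was at 0.25 and 0.14. *Dio1*, the deiodinase of liver and kidney, and *Iyd* were not well above background in every channel.

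The partners and cofactors of the receptors form the complexes through which the hormone acts on transcription. Of the retinoid X receptors 2 of 3 passed and 0 were counted as changed, with medians of -0.08 and 0.02, and *Rxra* was at -0.01 and 0.11. Of the corepressor complex 5 of 6 passed and 0 were counted as changed, with medians of -0.17 and -0.02. Of the coactivators 5 of 8 passed and 0 were counted as changed, with medians of 0.19 and 0.20, and 4 of the 5 were positive on both arrays. The coactivator with the highest signal, the acetyltransferase *Crebbp*, had log2 ratios of 0.16 and 0.32. *Med1*, the Mediator subunit that docks on the liganded receptor, came closest to the threshold at 0.40 and 0.34, a gene singled out after its values were seen. Over all 10600 passing genes 37.3% were positive on both arrays, and nothing particular to the coactivators is read from their count.

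Of 9 genes known to respond to thyroid hormone in brain or liver, 2 passed and 0 were counted as changed, with medians of 0.39 and 0.03. *Mbp*, the myelin gene, had wild type signals of 653 and 695 and *Plzf* lu/lu signals of 901 and 795, at log2 ratios of 0.46 and 0.19. *Klf9*, a direct target of the receptors, was well above background but under the signal minimum, at 0.74 and 0.24. *Thrsp* was not well above background in every channel.

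The lysine and pipecolate enzymes share a pathway with the ketimine reductase activity of *Crym*. Of these 2 of 6 passed and 0 were counted as changed, with medians of 0.12 and -0.13, and *Aldh7a1*, with the highest signal, was at 0.24 and -0.08. *Pipox*, which oxidizes pipecolate, was under the signal minimum at -0.68 and -0.51. Of 12 other genes named for crystallins 4 passed (*Cryab*, *Cryl1*, *Cryz* and *Cryzl1*, which are also expressed outside the lens), and 0 were counted as changed, with medians of 0.09 and -0.06. *Cryz*, a quinone reductase, was at 0.12 and 0.06.

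Genes of the thyroid gland gave 0 of 10 passing, and *Slc5a5* and *Slc26a4* were not well above background in every channel. When the lists were counted among all genes well above background, 1 of 70 was higher and 4 of 70 lower on both arrays, beside 2.52% and 2.07% of all genes so counted, and nothing particular to the lists is read from this. The higher gene was *Nkx2-1*, a factor of both the thyroid and the ventral forebrain, at log2 ratios of 1.27 and 0.47, and the lower genes were *Trh*, *Pipox*, the carrier *Slc16a10* (-0.39 and -0.68) and the thyroid and isthmus factor *Pax8* (-0.52 and -0.58). Apart from *Trh*, these genes were under the signal minimum and are named after their values were seen. For *Nkx2-1* and *Slc16a10*, 1 of their 2 and 3 probes well above background was beyond 1.3-fold on both arrays.

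**Figure D3:**
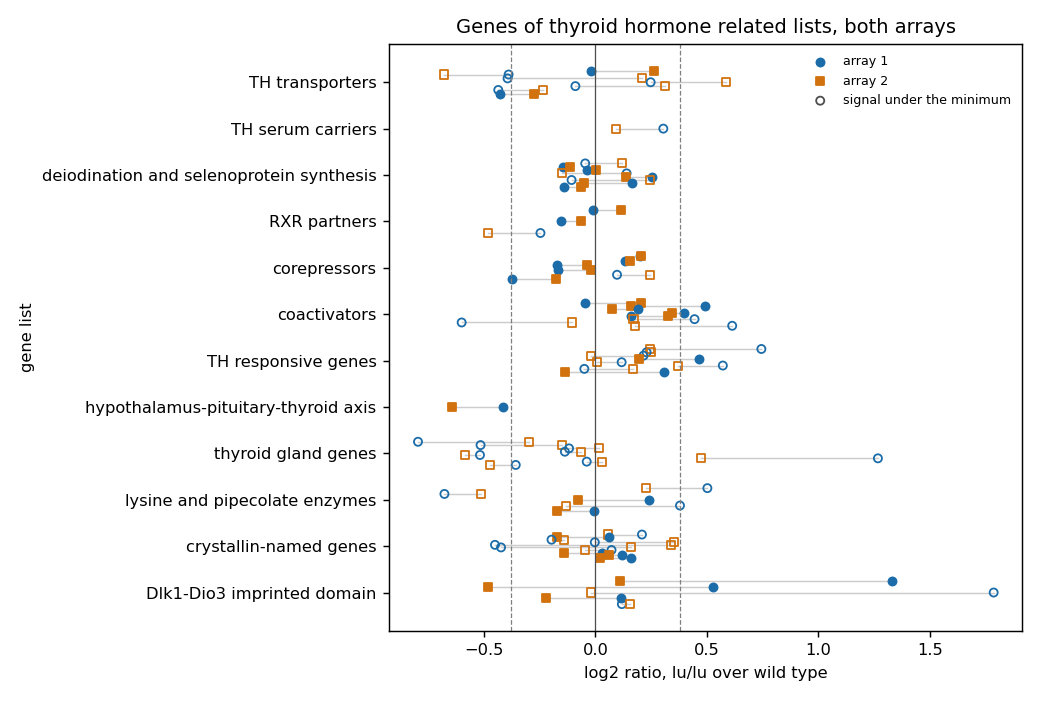
Log2 ratio (*Plzf* lu/lu over wild type, x axis) on array 1 (blue circles) and array 2 (orange squares) for the 70 listed genes well above background in every channel, by list (y axis), with a grey line joining the arrays for each gene. Open symbols are genes under the signal minimum, and dashed lines mark 1.3-fold. *Trh*, at -0.41 and -0.64, is the filled pair beyond the same line on both arrays, and *Dlk1* and *Rian* show wide gaps between the arrays.

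*Dio3* closes the imprinted domain that begins with *Dlk1*, and several genes of this domain had ratios far apart on the arrays. Of its 6 other genes 3 passed and 0 were counted as changed, with a median log2 ratio of 0.53 on array 1 and -0.22 on array 2. *Dlk1*, a paternally expressed Notch ligand relative, had wild type signals of 4919 and 7908 and *Plzf* lu/lu signals of 12364 and 8529 on arrays 1 and 2, at log2 ratios of 1.33 and 0.11. The maternally expressed *Meg3* was at 0.53 and -0.48, and *Rian*, with a wild type signal of 193 on array 1 and 715 on array 2, was at 1.79 and -0.02. *Dio3* itself was at -0.03 and -0.44, and *Dio3os*, its antisense neighbor, was under the signal minimum at 0.12 and 0.15. *Rtl1* was not well above background in every channel.

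The surroundings of the genes were read through the probes within 500 kb on the same chromosome (mm9). Near *Crym* 7 other genes passed, with log2 ratios from -0.73 to 0.22 and 0 beyond 1.3-fold on both arrays. Near *Thra* 20 genes passed and near *Thrb* 2, with 0 beyond 1.3-fold on both arrays in either window. *Dio2* had 0 passing genes in its window and *Dio3* had 3, of which *Hsp90aa1*, a cytosolic chaperone, was higher at 0.54 and 0.43. Over all passing genes 2.58% were higher and 0.736% lower, and nothing is read from the counts in these small windows.

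The makeup of the dissected tissue was read from 11 marker lists, and its part in the ratio of *Crym* was not tested. *Nkx2-1* is both on the forebrain and the thyroid gland list, and *Cryaa* and *Crybb3* are both on the lens and the crystallin list. Forebrain markers were higher for 2 of 5 passing genes (*Six3* among them) of 7 listed, and their summed signal was 5302 and 3481 in wild type and 6193 and 6359 in *Plzf* lu/lu on arrays 1 and 2, led by *Lhx2*. The wild type sum was higher on array 1 in the forebrain, hindbrain, neuroepithelial, neuronal, primitive erythrocyte and mesenchymal lists. In the midbrain and isthmus, endothelial, surface ectoderm, lens and pituitary placode lists it was lower on array 1. The *Plzf* lu/lu sums were also close in the forebrain, hindbrain and primitive erythrocyte lists, as for *Crym* and *Thra*. This likeness was picked after the values were seen and was not tested. Midbrain and isthmus markers were lower for 1 of 3 passing genes of 6 listed (*En2*, with the highest signal, at -1.86 and -1.25), with sums of 3313 and 3639 against 1812 and 2181. Without *En2* these sums were 1396 and 1329 against 1285 and 1207. Of the other genes well above background, *Fgf8* was at 0.40 and 0.19 and *Wnt1* at -0.60 and -0.21. *Pax2*, at -0.10 and -0.01, and *Cnpy1*, at -1.29 and -1.08, were under the signal minimum. Hindbrain markers had 0 of 5 passing, sums of 174 and 148 against 86.9 and 80.4, and *Egr2*, *Hoxb1* and *Hoxa2* not well above background in every channel. Neuroepithelial markers, led by *Vim*, had 0 of 7 counted as changed and sums of 38408 and 35798 against 36696 and 45999. Neuronal markers, led by *Stmn2*, had 1 of 6 passing genes higher (*Elavl4*), and their sum was 6375 and 5624 in wild type against 6510 and 9059 in *Plzf* lu/lu. For *Elavl4*, 1 of its 3 probes well above background was beyond 1.3-fold on both arrays. Over the 6 passing neuronal genes the median log2 ratio was 0.01 on array 1 and 0.68 on array 2, and 3 were positive on both.

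Markers of other tissues were present as well. Primitive erythrocyte genes, led by *Hbb-y*, had 0 of 4 passing genes counted as changed, and their sum was 343945 in wild type on array 1 against 146769, 184370 and 177878 in wild type on array 2 and *Plzf* lu/lu on arrays 1 and 2. Endothelial genes, led by *Emcn*, had 1 of 2 passing genes lower and sums of 1338 and 1453 against 961 and 861. Among genes well above background, 4 of 7 endothelial genes were beyond 1.3-fold lower on both arrays and 0 higher. Of all genes so counted 2.07% were lower and 2.52% higher. On the same count 3 of 7 forebrain, 1 of 7 neuronal and 1 of 4 pituitary placode genes were higher. Lower were 2 of 5 midbrain and isthmus genes and 2 of 2 hindbrain genes. Mesenchymal genes, led by *Col1a2*, had 0 of 7 counted as changed and sums of 12817 and 10750 against 12842 and 9622. Surface ectoderm genes, led by *Krt18*, had 0 of 5 counted as changed, with sums of 8135 and 11643 against 12255 and 8950. The lens list, led by *Prox1*, had 0 of 5 passing and sums of 173 and 234 against 171 and 267. Of the pituitary placode list, led by *Pitx1*, 1 of 5 passed and 0 were counted as changed, with sums of 760 and 815 against 1280 and 926. *En2*, *Cnpy1* and *Emcn* are among the genes the study listed from these arrays.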

How the data were processed

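Signals were extracted by the authors with Feature Extraction 10.7.3.1. The deposited intensity values were background-subtracted, with surrogates for dim spots, and dye-normalized within each array by LOWESS. The deposited log10 ratio is Cy5 over Cy3, and a deposited log2 table holds the same ratios to within 0.005. Control spots and outlier spots (137 and 126 gene spots) were left out. The probe with the largest mean log2 signal stood for its gene. Log2 ratios were fitted with limma 3.58.1 in R 4.3.3 with data.table (version 1.17.8), using an intercept and eBayes (Benjamini-Hochberg over 10600 genes). The code was checked on simulated normal data with variances drawn from the same fit. These data held no dye effect, so the check does not cover the unswapped dyes. Lists and plots were made in Python 3.11.15 with matplotlib 3.10.9, pandas 2.3.3 and numpy 2.4.6.

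The genes and lists were chosen with earlier results of these data known. Named genes are the 5 genes, *Zbtb16*, the 5 nearest to *Crym*, passing thyroid-listed genes beyond 1.3-fold or otherwise the passing gene with the highest signal in each thyroid list, the gene with the highest signal in each marker list, and changed neighbors within 500 kb. Signals of different probes do not rank the amounts of their transcripts. *Alb*, *Ttr*, *Klf9*, *Med1*, *Meg3*, *Rian*, *Dio3os*, *Six3*, *Elavl4*, *Fgf8*, *Wnt1*, *Pax2*, *Cnpy1* and genes named only as under a signal limit were added after their values were seen. Some genes that the rule selects are not reported here. RefSeq symbols came from GRCm38.p6. Alternatives were normexp (offset 50) with loess or median centring, the deposited log2 table, probe means, GC trend removal (lowess, span 0.67), 2 other filters, 1.5-fold, each array alone, unpaired channels and eBayes with trend.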

Additional observations from a re-analysis of the deposited data

How the results depend on the processing

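Without array pairing (no replicate block), limma called 0 genes higher at an adjusted p under 0.05, against 3, and 0 lower, with 1402 higher and 1250 lower at an unadjusted p under 0.05. It called 0 higher with loess, the deposited table, probe means, the filter on spots well above background, no filter or eBayes with trend, 1 with the GC trend removed, and 9637 higher and 7 lower with median centring. Counts beyond 1.3-fold, 274 higher and 78 lower, became 6698 and 4 with median centring, 586 and 481 for spots well above background, 1695 and 2173 with no filter, and 41 and 12 at 1.5-fold. Probe means gave 142 higher and 112 lower. On single arrays the counts ranged from 477 to 875 higher and from 208 to 592 lower.

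For the thyroid lists, with 0 higher and 1 lower, median centring gave 20 and 0, spots well above background 1 and 4, no filter 2 and 5, and 1.5-fold 0 and 0. Single arrays gave 0 to 5 higher and 2 lower on each. Median centring moved the mean log2 ratio of *Crym* from 0.91 to 1.55 and of *Thra* from -0.12 to 0.37, and shifted all genes by 0.55 itself. Probe means moved *Thrb* from 0.39 to 0.76 and *Thra* from -0.12 to -0.39, each through a dim probe. Loess and GC trend removal left the means of the 5 genes within the SD between arrays. The deposited table holds the same ratios, and with 2 arrays a single array always lies within that SD, so these settings could not show a move. Single arrays ranged from 0.63 to 1.19 for *Crym*, -0.35 to 0.11 for *Thra*, 0.27 to 0.50 for *Thrb*, -0.78 to -0.15 for *Dio2* and -0.44 to -0.03 for *Dio3*. Apart from median centring and probe means, the cause of these changes was not tested. Signal over background limits *Thrb*, *Dio2* and *Dio3*. Single arrays allow no limma test.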
